A study of Mus musculus with 6 samples.

Results

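The genes of mitochondrial fatty acid oxidation were examined in livers of OP mice and HFCF mice. The 37 genes were taken from a list of symbols that covers the carnitine shuttle, the acyl-CoA dehydrogenases, the hydratases and thiolases, electron transfer, the acyl-CoA thioesterases, the medium-chain acyl-CoA synthetases and regulators of fuel choice. Each of the 37 symbols matched 1 of the 55401 Ensembl genes in the table, and all 37 passed the filter on low counts, which kept 17394 genes. The OP group was 3 liver samples of C57BL/6 mice treated with okra polysaccharide, a complex carbohydrate from okra. The HFCF group was 3 liver samples of C57BL/6 mice fed a diet rich in fat, cholesterol and fructose. The labels give the OP mice no diet and give neither group a dose, duration, age or sex, and no mice on a standard diet were compared. Whether a group's 3 samples are 3 animals is not stated, so p-values rest on the spread between samples, and part of that spread may be technical. The series is about fatty liver disease that accompanies metabolic disturbance, and the comparison asks how OP livers differed from HFCF livers.

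Liver cells burn fatty acids in the mitochondrial matrix by beta-oxidation, a cycle that shortens an activated chain step by step and yields acetyl-CoA, much of which the liver turns into ketone bodies. Long chains enter as carnitine esters, and this entry is the main point of control, since malonyl-CoA, an intermediate of fatty acid synthesis, blocks the first carnitine acyltransferase. In each turn of the cycle an acyl-CoA dehydrogenase, a hydratase, a hydroxyacyl-CoA dehydrogenase and a thiolase act in order, and the electrons taken by the first enzyme pass through the electron transfer flavoprotein to the respiratory chain. In the liver many of these genes are targets of the nuclear receptor PPAR-alpha.

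Totals ran from 50635853 to 61918541 counts in OP and from 46459980 to 58822973 in HFCF. A count of 4 was the most frequent of the counts 3, 4 and 5 throughout; OP replicate 1 had 482, 909 and 257 genes with these counts and HFCF replicate 1 had 558, 879 and 258. A read pair may therefore stand for several counts, and the totals may overstate the depth. Levels are given as CPM, counts divided by the scaled size of the library. Hepatocyte markers were abundant in all 6 libraries, as the tissue label implies: Alb, the albumin gene, had 50265, 44088 and 28908 CPM in the OP libraries, against 15870.2, 16246 and 32978 CPM in the HFCF libraries. The hepatocyte marker sum was lowest in OP replicate 3 among OP libraries and highest in HFCF replicate 3 among HFCF libraries (71944, 65154 and 46902 CPM in OP and 30139.9, 29005 and 49774 CPM in HFCF), and Alb made up most of it. Of the 5 listed hepatocyte markers 4 had a log2 fold change above 0, and the list median was 0.45. Ttr, the transthyretin gene, rose (1.13 ± 0.202, SE; edgeR adjusted p = 0.019). Apoa1 was at 0.31 ± 0.193 and Serpina1a at 0.45 ± 0.230 (SE), and neither passed. Tat, a tyrosine aminotransferase, went the other way, with 820.2, 433 and 199.8 CPM in the OP libraries, against 1654, 1153 and 1293 CPM in the HFCF libraries. Every OP library of Tat was below every HFCF library (-1.50 ± 0.438, SE; edgeR adjusted p = 0.0766). OP replicate 2 and HFCF replicate 3 stood apart by skeletal muscle transcripts: the 5 listed muscle markers (Ckm, Acta1, Tnnt3, Myh4 and Mylpf) summed to 0.666, 816 and 0.354 CPM in the OP libraries and 0.892, 0.603 and 274 CPM in the HFCF libraries. Mitochondrially encoded mRNAs took 7.48, 6.08 and 14.4% of counts in the OP libraries and 22.0, 18.8 and 14.1% in the HFCF libraries. Of the 5 red cell markers 4 fell, and the sum over all 5 was 192 to 414 CPM in OP libraries and 941 to 1767 CPM in HFCF libraries. The summed macrophage, stellate, endothelial, bile duct and lymphocyte markers overlapped between the groups. The summed adipocyte markers did not (2.38 to 6.13 CPM in OP and 0.0832 to 1.44 CPM in HFCF). Of the 3 tested, Cidea alone had separate groups, with 2.20, 1.59 and 2.44 CPM in the OP libraries, against 0, 0 and 0.396 CPM in the HFCF libraries. Adipoq and Plin1 overlapped between groups. Adipoq, which defines adipocytes, was at 0 in OP replicate 1 and HFCF replicates 1 and 2. The part of these shifts in the results was not tested, except where a value is given without a library or after adjustment for the mitochondrial share. In whole tissue, fewer cells of a type and less RNA per cell cannot be told apart.

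Of the 37 genes, 7 were higher in OP and none was lower. They were Cpt2 and Slc25a20 of the carnitine shuttle, the dehydrogenases Hadh and Acad12, the isomerase Eci1, the thioesterase Acot13 and the medium-chain synthetase Acsm1. Their changes were moderate, from 1.59-fold for Acsm1 to 2.10-fold for Hadh. A gene was called at an adjusted p under 0.05 in the quasi-likelihood test of edgeR, adjusted by Benjamini-Hochberg over all 17394 tested genes. This rule called 3.26% of all tested genes higher and 3.47% lower, or 6.73% in either direction. Of the 37 genes, 34 had a log2 fold change above 0, against 51.4% of all tested genes. The median was 0.41, against 0.02 over all tested genes. The other 30 genes had a median of 0.36, and 27 of them lay above 0. Neighbouring pathway lists, described below, had medians of 0.43 for fatty acid activation and delivery and 0.38 each for ketone body and peroxisomal genes. Other thioesterases and synthetases had 0.36, propionyl-CoA and branched-chain breakdown 0.34 and the pyruvate dehydrogenase list 0.32. The lists of regulators and of malonyl-CoA and AMPK control were at 0.03 and -0.07, and mitochondrially encoded mRNAs at -0.97. An upward shift was thus not particular to the 37 genes. In 15 of the 37 genes every OP library was above every HFCF library, a pattern found in 15.8% of all tested genes. In none was every OP library below every HFCF library, against 15.4%.

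**Figure D1:**
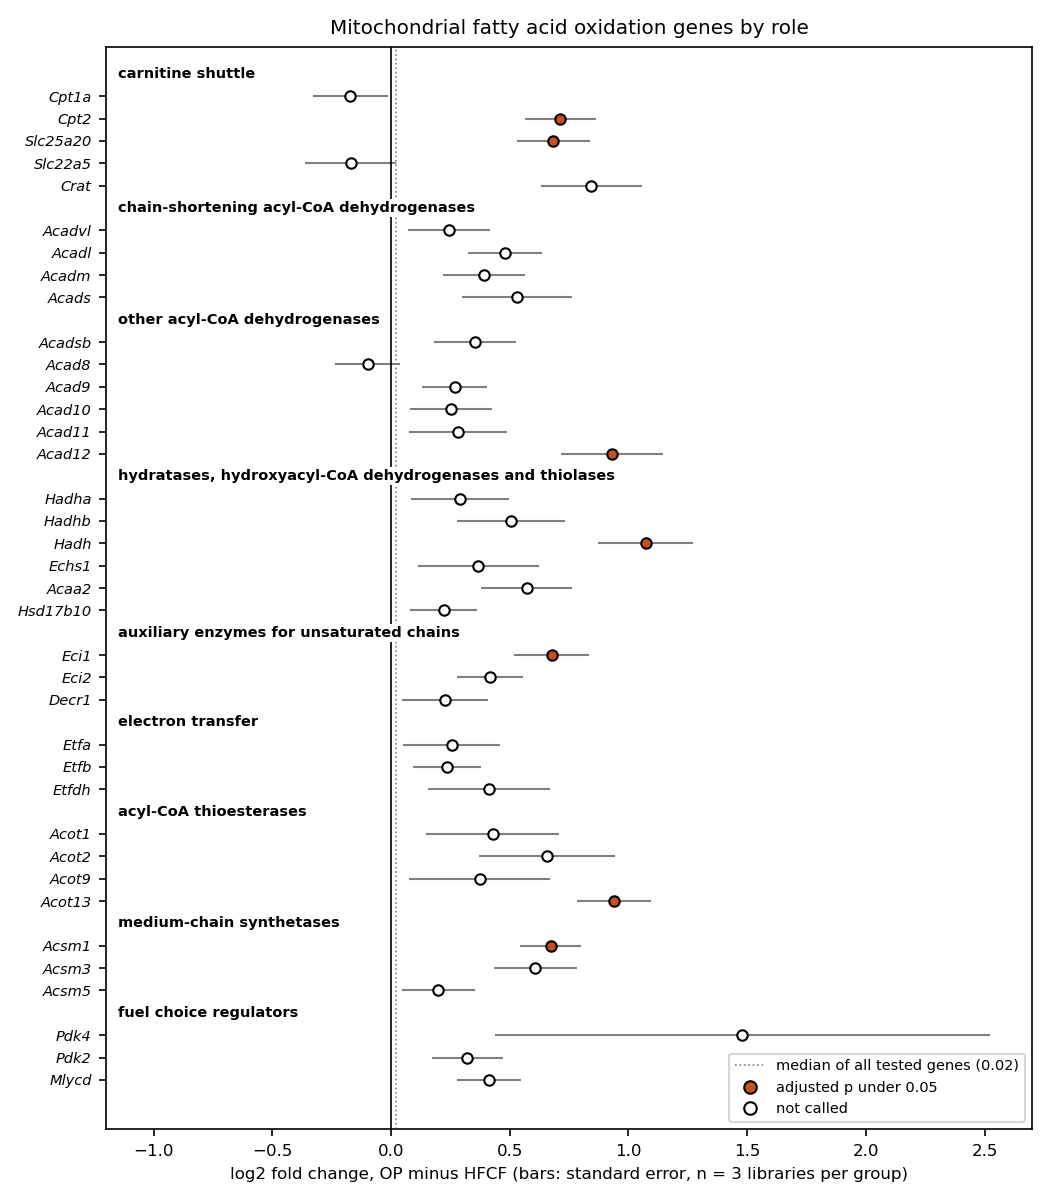
Log2 fold change of each of the 37 genes, OP minus HFCF, ordered by role; bars are standard errors from the fit (3 libraries per group), filled points have an adjusted p under 0.05 and the dotted line is the median of all tested genes. The 7 filled points lie between 0.67 and 1.07; Cpt1a, Slc22a5 and Acad8 are the 3 points below 0, and Pdk4 has by far the widest bar.

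The calls depended on which libraries were in the fit. Without OP replicate 1, HFCF replicate 1 or HFCF replicate 2, none of the 37 genes passed, and those fits called 0.477%, 0.283% and 0.186% of all tested genes higher. Without OP replicate 2, Acot13 and Acsm1 passed, where 1.75% of all tested genes were called higher. Without OP replicate 3 all 7 passed together with Crat, Acads and Etfdh, against 3.55% of all tested genes. Without HFCF replicate 3 all but Acad12 passed, together with Acsm3, against 3.35%. With both muscle-containing libraries left out, an alternative chosen after seeing the data, Acot13 alone passed (1.13, edgeR adjusted p = 0.027), against 1.62% of all tested genes; the median over the 37 genes was 0.35 and 34 lay above 0. The sizes moved less than the calls. Over the 6 single omissions the log2 fold change was 0.61 to 0.84 for Cpt2, 0.56 to 0.82 for Slc25a20, 0.95 to 1.23 for Hadh, 0.56 to 0.81 for Eci1, 0.86 to 1.07 for Acot13, 0.62 to 0.73 for Acsm1 and 0.66 to 1.07 for Acad12, and none changed sign.

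In the carnitine shuttle the inner-membrane steps rose and the outer-membrane step did not pass. Cpt2 encodes the inner-membrane carnitine palmitoyltransferase, which returns the chain to coenzyme A, and it had 219.8, 225 and 204 CPM in the OP libraries, against 123, 119 and 154 CPM in the HFCF libraries. Every OP library was above every HFCF library, with a log2 fold change of 0.71 ± 0.148 (SE; edgeR adjusted p = 0.0297). Slc25a20, the carnitine-acylcarnitine carrier of the inner membrane, had 178, 193 and 165 CPM in the OP libraries, against 106, 97.2 and 131 CPM in the HFCF libraries. Its groups were likewise separate, with a log2 fold change of 0.68 ± 0.156 (SE; edgeR adjusted p = 0.0387). Cpt1a, the liver form of the outer-membrane enzyme that malonyl-CoA inhibits, had 380.0, 399 and 290.1 CPM in the OP libraries, against 415, 388 and 401 CPM in the HFCF libraries. OP replicate 3 was the lowest library and the other OP libraries fell among or near the HFCF values (-0.17 ± 0.158, SE; edgeR adjusted p = 0.549). Crat, the carnitine acetyltransferase that handles short chains, had 151, 165 and 94.8 CPM in the OP libraries, against 75.3, 68.7 and 84.8 CPM in the HFCF libraries. The groups did not overlap, but OP replicate 3 lay far below the other OP libraries, and Crat missed the threshold with a log2 fold change of 0.84 ± 0.214 (SE; edgeR adjusted p = 0.0539). It passed without OP replicate 3, at 1.05. Slc22a5, the plasma membrane importer of carnitine, averaged 57.6 ± 14.2 CPM in OP and 64.9 ± 6.20 CPM in HFCF (SD, n = 3 each; -0.17 ± 0.192, SE). Slc22a5 has a close copy, Slc22a21, with 98.31% identity over 831 aligned transcript bases, so reads may be split between them. Slc22a21 had 9.72% as many counts as Slc22a5 and a log2 fold change of -0.64.

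**Figure D2:**
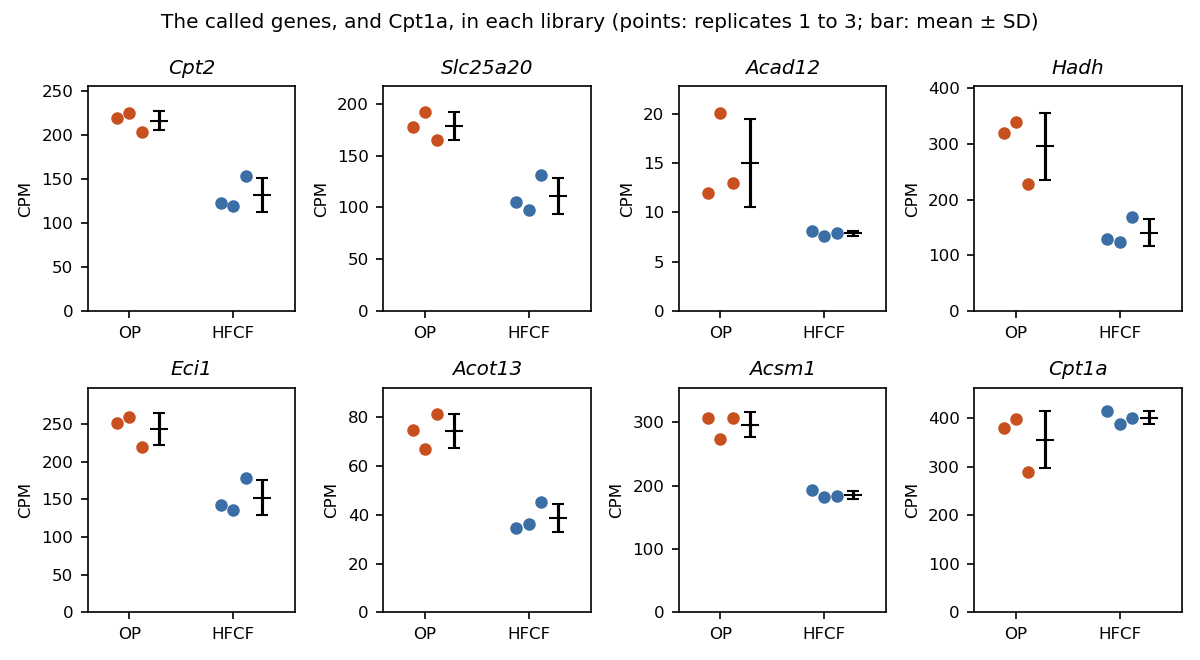
Level of the 7 called genes and of Cpt1a in CPM; points are libraries (replicates 1 to 3 from left to right within a group), bars are mean ± SD of 3 libraries. In each of the 7 called genes the 3 OP points lie above the 3 HFCF points, while the OP points of Cpt1a reach from 290.1 to 399 CPM and overlap the HFCF points.

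The 4 dehydrogenases that open the cycle for chains of falling length all lay above 0, and none passed. Acadvl, for very long chains, averaged 453 ± 79.6 CPM in OP and 382 ± 42.9 CPM in HFCF (0.25 ± 0.172, SE). Acadvl shares 1151 exon bases with Dvl2 on the opposite strand, and whether reads were counted by strand is not stated. Dvl2 had 5.65% as many counts as Acadvl and a log2 fold change of -0.75. Acadl, for long chains, had 265, 278 and 215 CPM in the OP libraries, against 164, 176 and 204 CPM in the HFCF libraries, and its OP libraries were all above its HFCF libraries (0.48 ± 0.157, SE; edgeR adjusted p = 0.0994). Acadm, for medium chains, averaged 411 ± 75.8 CPM in OP and 313 ± 26.3 CPM in HFCF (0.39 ± 0.173, SE). Acads, for short chains, averaged 139.7 ± 42.0 CPM in OP and 96.7 ± 13.8 CPM in HFCF (0.53 ± 0.233, SE), with OP replicate 3 (93.9 CPM) inside the HFCF range. Without OP replicate 3 Acads passed, at 0.75.

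Among the relatives of these enzymes, Acad12 was the one that passed. Acad12 is a little-characterised member of the family, and it had 11.9, 20.1 and 13.0 CPM in the OP libraries, against 8.13, 7.61 and 7.88 CPM in the HFCF libraries, the HFCF libraries being close together and OP replicate 2 high. It had a log2 fold change of 0.93 ± 0.216 (SE; edgeR adjusted p = 0.0411), and 0.66 without OP replicate 2. Acad12 has a close relative, Acad10, with 95.3% identity over 1614 aligned transcript bases, so the split of reads between them is uncertain. Acad10 had 30.6, 37.1 and 32.3 CPM in the OP libraries, against 32.9, 29.0 and 22.2 CPM in the HFCF libraries (0.25 ± 0.174, SE). Acadsb, of isoleucine breakdown, averaged 74.8 ± 9.03 CPM in OP and 58.6 ± 10.8 CPM in HFCF (0.35 ± 0.172, SE), and Acad8, of valine breakdown, averaged 44.9 ± 5.52 CPM in OP and 48.0 ± 1.40 CPM in HFCF (-0.10 ± 0.138, SE). Acad9, which serves in the assembly of respiratory complex I, averaged 26.2 ± 2.46 CPM in OP and 21.8 ± 1.29 CPM in HFCF (0.27 ± 0.137, SE), with separate groups. Acad11 averaged 278 ± 70.6 CPM in OP and 229 ± 26.1 CPM in HFCF (0.28 ± 0.208, SE), with overlapping groups.

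The largest change among the called genes was in the hydroxyacyl-CoA dehydrogenase for medium and short chains. This gene, Hadh, had 319, 339.7 and 227 CPM in the OP libraries, against 129.7, 123 and 169 CPM in the HFCF libraries. The lowest OP library was above the highest HFCF library, with a log2 fold change of 1.07 ± 0.199 (SE; edgeR adjusted p = 0.0209). The trifunctional protein carries out the same step for long chains, together with hydration and thiolysis. Its alpha subunit gene Hadha had 305, 356 and 209 CPM in the OP libraries, against 232, 214 and 265 CPM in the HFCF libraries, and its beta subunit gene Hadhb had 213, 269.9 and 146 CPM in the OP libraries, against 138, 133 and 171 CPM in the HFCF libraries. In both, OP replicate 3 was the lowest OP library and lay below HFCF replicate 3, and neither passed (0.29 ± 0.206 and 0.51 ± 0.227, SE). Hadhb has a near-identical copy, Gm13910, at 99.79% over 1428 aligned bases, which drew 13.6% as many counts as Hadhb itself. Acaa2, the medium-chain thiolase, had 1089, 1307 and 900.5 CPM in the OP libraries, against 672, 677 and 870.1 CPM in the HFCF libraries, with separate groups and 0.57 ± 0.192 (SE; edgeR adjusted p = 0.108). Echs1, the short-chain hydratase, averaged 157 ± 55.7 CPM in OP and 122 ± 15.8 CPM in HFCF (0.37 ± 0.257, SE), with overlapping groups. Hsd17b10, a dehydrogenase of isoleucine and steroid breakdown that is also a subunit of mitochondrial RNase P, averaged 360.0 ± 31.5 CPM in OP and 309 ± 23.7 CPM in HFCF (0.22 ± 0.140, SE).

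Of the 3 enzymes that prepare unsaturated chains for the cycle, Eci1 passed. Eci1 encodes an enoyl-CoA isomerase and had 251, 259 and 219 CPM in the OP libraries, against 142, 136 and 179 CPM in the HFCF libraries, with a log2 fold change of 0.68 ± 0.157 (SE; edgeR adjusted p = 0.0411). Its relative Eci2 had 384, 354 and 355 CPM in the OP libraries, against 256, 256 and 307 CPM in the HFCF libraries, separate between groups but short of the threshold (0.42 ± 0.140, SE; edgeR adjusted p = 0.108). Decr1, the dienoyl-CoA reductase, averaged 289 ± 61.8 CPM in OP and 247 ± 17.1 CPM in HFCF (0.23 ± 0.180, SE), with overlapping groups. None of the 3 genes of electron transfer passed with all libraries. The flavoprotein subunit genes averaged 258 ± 42.4 CPM in OP and 216 ± 51.7 CPM in HFCF for Etfa (0.26 ± 0.204, SE), and 532 ± 43.8 CPM in OP and 452 ± 34.5 CPM in HFCF for Etfb (0.24 ± 0.142, SE), with separate groups in Etfb. Etfdh, the oxidoreductase that passes the electrons to ubiquinone, had 199.7, 218 and 108 CPM in the OP libraries, against 124, 117 and 154 CPM in the HFCF libraries (0.41 ± 0.256, SE). OP replicate 3 was its lowest library, and without it Etfdh passed at 0.67.

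The most stable call was Acot13. Acot13 encodes a small thioesterase that releases free fatty acids from acyl-CoA and associates with mitochondria, and it had 74.6, 67.1 and 81.1 CPM in the OP libraries, against 34.6, 36.2 and 45.2 CPM in the HFCF libraries. OP replicate 3 was the highest of all libraries here, unlike in most of the other genes. It had a log2 fold change of 0.94 ± 0.157 (SE; edgeR adjusted p = 0.0149) and was called in 9 of 14 alternatives, more than any other of the 37 genes; Acsm1 was called in 8 and Hadh in 7. Acot1, a cytosolic thioesterase, had 137, 166 and 75.6 CPM in the OP libraries, against 83.8, 81.1 and 116 CPM in the HFCF libraries (0.43 ± 0.282, SE). Acot2, its counterpart in the matrix, had 26.7, 24.1 and 13.4 CPM in the OP libraries, against 11.4, 11.2 and 18.1 CPM in the HFCF libraries (0.66 ± 0.288, SE). In both, OP replicate 3 lay below HFCF replicate 3. They share 95.1% identity over 1274 aligned transcript bases, so reads may be split between them. Acot9 was the least abundant gene, at 2.72 ± 0.383 CPM in OP and 2.10 ± 0.547 CPM in HFCF.

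The medium-chain synthetases activate fatty acids inside the mitochondrion without the carnitine shuttle. Acsm1 had 307, 273 and 307 CPM in the OP libraries, against 193, 181 and 183 CPM in the HFCF libraries. The HFCF libraries were close together and all below the OP libraries, with a log2 fold change of 0.67 ± 0.129 (SE; edgeR adjusted p = 0.0231). Acsm3 had 95.8, 96.3 and 81.1 CPM in the OP libraries, against 55.8, 50.3 and 73.1 CPM in the HFCF libraries, with separate groups and a value short of the threshold (0.61 ± 0.173, SE; edgeR adjusted p = 0.0718). It passed without HFCF replicate 3, at 0.78. Acsm3 shares 1962 exon bases with Eri2 on the opposite strand, and the sources used here do not say whether reads were counted by strand. Eri2 had 26.9% as many counts as Acsm3 and a log2 fold change of 0.11. Acsm5 averaged 154 ± 26.1 CPM in OP and 134 ± 3.73 CPM in HFCF (0.20 ± 0.154, SE), with OP replicate 3 the highest library.

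Pdk4, a kinase that shuts down pyruvate dehydrogenase when fat is burned, had the largest fold change and the least certain one. It had 8.51, 68.4 and 4.79 CPM in the OP libraries, against 4.89, 2.68 and 21.7 CPM in the HFCF libraries. The high library in each group was the one with skeletal muscle transcripts, OP replicate 2 and HFCF replicate 3. Cpt1b, the muscle form of the outer-membrane carnitine palmitoyltransferase and not one of the 37 genes, was also highest in these libraries of each group, with 9.63, 30.9 and 14.2 CPM in the OP libraries, against 7.67, 7.50 and 16.0 CPM in the HFCF libraries. Pdk4 had a log2 fold change of 1.48 ± 1.04 (SE; edgeR adjusted p = 0.423). Without OP replicate 2 the value turned to -0.55, without HFCF replicate 3 it was 2.85, and without both it was 0.80 (edgeR adjusted p = 0.295). Pdk2, a kinase with the same substrate, averaged 85.4 ± 10.3 CPM in OP and 68.4 ± 6.42 CPM in HFCF (0.32 ± 0.149, SE). Mlycd, the decarboxylase that removes malonyl-CoA, had 118, 123 and 111 CPM in the OP libraries, against 81.6, 85.2 and 98.0 CPM in the HFCF libraries, separate between groups (0.41 ± 0.135, SE; edgeR adjusted p = 0.1).

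**Figure D3:**
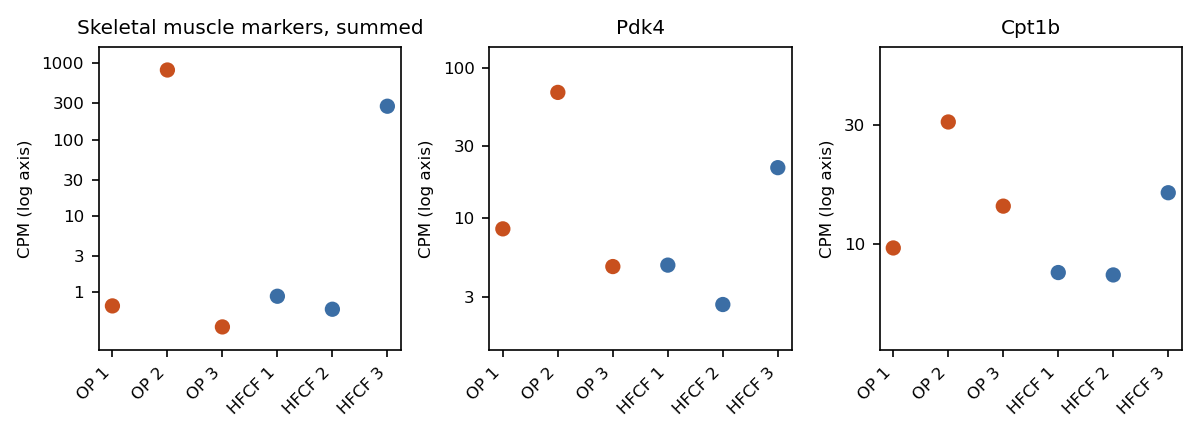
Summed level of the 5 skeletal muscle markers, and levels of Pdk4 and Cpt1b, in each library (CPM, log axes; OP libraries in orange on the left, HFCF libraries in blue on the right). The highest OP library is replicate 2 and the highest HFCF library is replicate 3 in all 3 panels.

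Ratios of counts within a library, which do not depend on how libraries are scaled, were taken for 5 pairs of genes. The ratio of Cpt2 to Cpt1a counts was 0.578, 0.564 and 0.704 in OP, against 0.295, 0.307 and 0.383 in HFCF, a difference of 0.91 in log2. The ratio of Hadh to Hadha was 1.05, 0.955 and 1.09 in OP, against 0.558, 0.575 and 0.637 in HFCF, a difference of 0.80. In both every OP library was above every HFCF library, and OP replicate 3 had the highest ratio. The ratios of Eci1 to Eci2 and of Hadhb to Hadha were separate by less, at differences of 0.26 and 0.21. The ratio of Etfb to Etfa overlapped between groups (1.82, 1.85 and 2.67 in OP and 2.53, 2.18 and 1.75 in HFCF). In a two-sided exact permutation test the 4 separate ratios each had p = 0.1 and that of Etfb to Etfa p = 1, so none passed; 3 against 3 libraries cannot give less than 0.1, and the adjusted p of the 4 over the 5 pairs was 0.125. The pairs were also chosen with the changes of their genes known, so the ratios are a description.

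**Figure D4:**
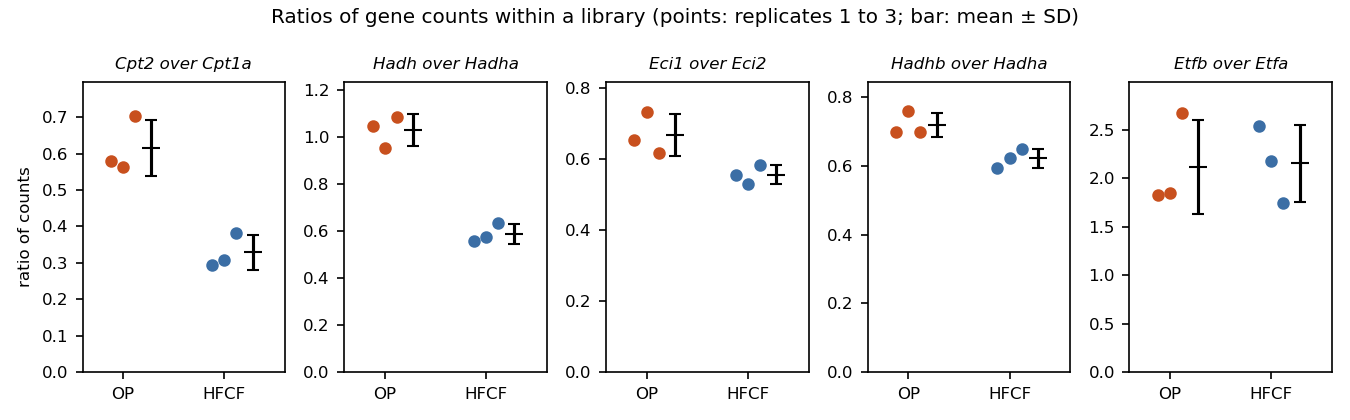
Ratio of the counts of paired genes within each library (no unit); points are libraries, bars are mean ± SD of 3 libraries. The ratio of Cpt2 to Cpt1a averaged 0.615 in OP and 0.329 in HFCF, and that of Etfb to Etfa overlapped between groups.

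Within the groups most of the 37 genes followed a common order of libraries. OP replicate 3 was the lowest OP library in 28 of the 37 genes, and HFCF replicate 3 the highest HFCF library in 28. Both held in 25 of the 37, against 19.9% of all tested genes. The hepatocyte marker sum, too, was lowest in OP replicate 3 among OP libraries and highest in HFCF replicate 3 among HFCF libraries. OP replicate 3 also had the largest share of mitochondrially encoded mRNA among OP libraries, and HFCF replicate 3 the smallest among HFCF libraries. The levels of the 37 genes summed to 8169, 8915 and 6741 CPM in the OP libraries and 5772, 5564 and 6704 CPM in the HFCF libraries, so OP replicate 3 and HFCF replicate 3 nearly met. With that share added to the fit as a covariate, 20 of the 37 genes lay above 0, their median was 0.04 and none passed. That fit called 0.632% of all tested genes higher, and the median over all tested genes was 0.0012. Share and group ran together, so the effects of mitochondrial mRNA content and of OP cannot be told apart in this fit. Under it Acot13 was at 0.88 and Acsm1 at 0.77, while Hadh was at 0.51, Eci1 at 0.35 and Hadha at -0.28. Among the 7 called genes the common order held in Cpt2, Slc25a20, Hadh and Eci1 and not in Acad12, Acot13 and Acsm1.

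**Figure D5:**
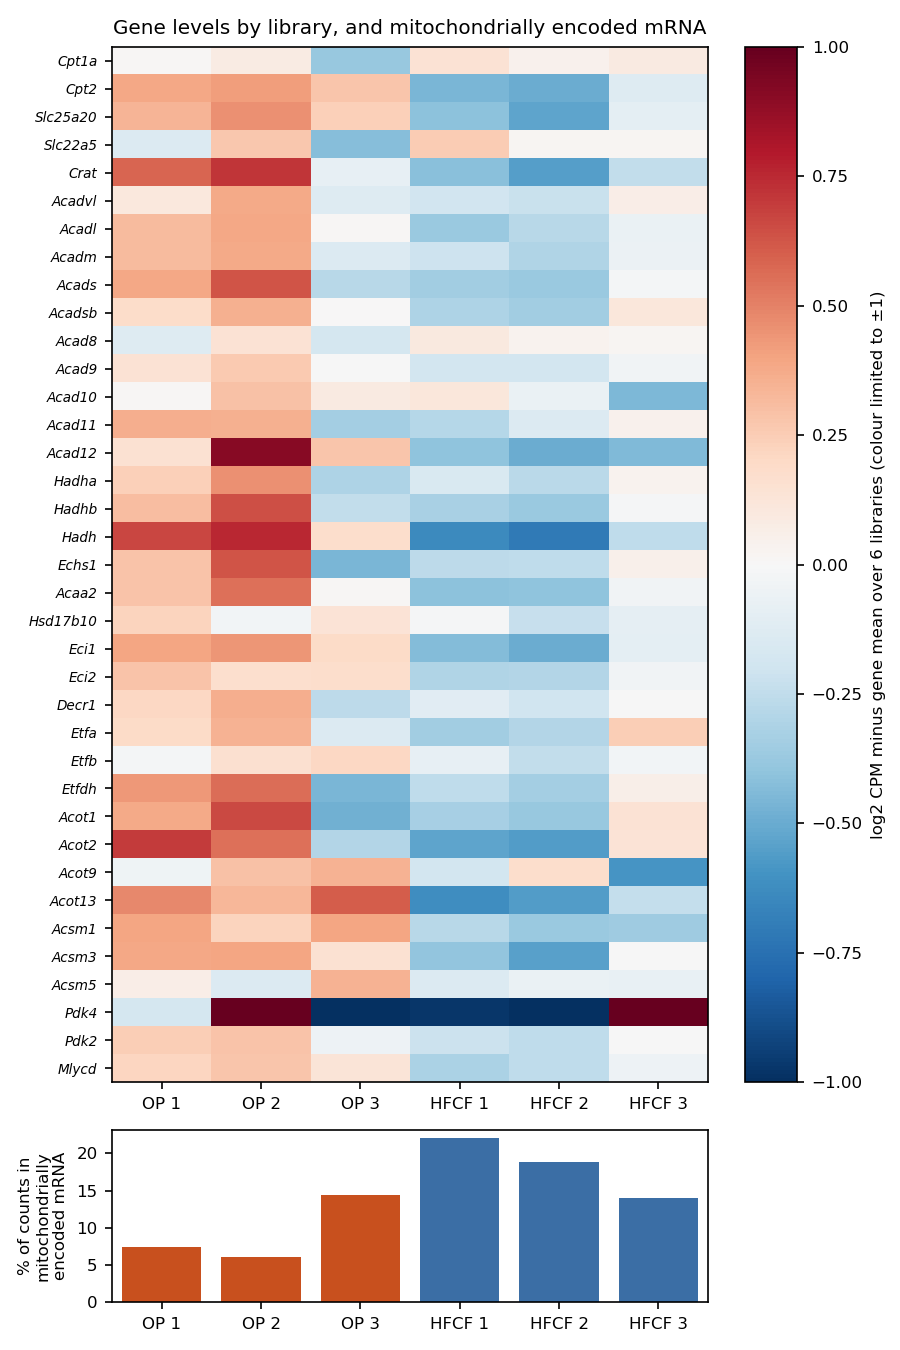
Top, log2 CPM of each of the 37 genes minus its mean over the 6 libraries (red above, blue below, colours limited at 1 unit). Bottom, percent of counts in mitochondrially encoded mRNA. OP replicates 1 and 2 combine the highest summed levels of the 37 genes with the lowest shares (7.48% and 6.08%). HFCF replicates 1 and 2 combine low summed levels with the highest shares (22.0% and 18.8%). Single genes can differ from the sum, as Acot13 was highest in OP replicate 3 and Cpt1a in HFCF replicate 1.

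Levels were compared between genes as CPM per kilobase of merged coding-transcript exons, a scale on which a long and a short gene can be set side by side. Acaa2 and Etfb were the most abundant, with 725 ± 134 in OP and 488 ± 74.5 in HFCF for Acaa2 and 596 ± 49.0 in OP and 506 ± 38.7 in HFCF for Etfb (CPM per kilobase, SD, n = 3 each). Within each group their values were closer than the sum of their SDs. Hsd17b10 followed with 363 ± 31.8 in OP and 311 ± 23.9 in HFCF, and Acadvl with 209 ± 36.7 in OP and 176 ± 19.8 in HFCF. Acot9 and Acad12 were the least abundant, with 1.55 ± 0.219 in OP and 1.20 ± 0.312 in HFCF for Acot9 and 2.30 ± 0.684 in OP and 1.21 ± 0.0399 in HFCF for Acad12. In the carnitine shuttle, Cpt1a stood at 70.9 ± 11.6 in OP and 79.9 ± 2.73 in HFCF and Cpt2 at 91.2 ± 4.56 in OP and 55.6 ± 8.05 in HFCF. Cpt1a was thus above Cpt2 in HFCF livers and below it in OP livers on this scale. The order depends on the lengths used, 5023 bases for Cpt1a and 2372 for Cpt2. These merge all annotated coding transcripts, whichever of them the liver uses. In CPM not divided by length, Cpt1a was above Cpt2 in every library. Acot13 was at 103 ± 9.73 in OP and 53.7 ± 7.94 in HFCF and held rank 12 of 37 in OP and rank 21 in HFCF.

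The surrounding pathway was described with lists chosen with earlier results of these data known. Each count of called genes per list is to be read beside the 3.26% of all tested genes called higher and 3.47% called lower. Of the 15 genes listed as regulators of fatty acid oxidation, 2 rose, 1 fell and 12 did not pass. Ppargc1a, a coactivator of PPAR-alpha that drives mitochondrial gene programmes, had 4.62, 4.59 and 5.68 CPM in the OP libraries, against 23.7, 25.4 and 21.7 CPM in the HFCF libraries. It fell, with a log2 fold change of -2.25 ± 0.161 (SE; edgeR adjusted p = 0.00193), and passed in all 14 alternatives, at -2.36 to -2.20 over the single omissions. Its relative Ppargc1b averaged 2.44 ± 1.44 CPM in OP and 6.66 ± 0.920 CPM in HFCF (-1.45 ± 0.411, SE; edgeR adjusted p = 0.0713). Pparg, the receptor that drives fat storage, rose, with 11.2, 9.92 and 18.2 CPM in the OP libraries, against 5.12, 2.91 and 6.72 CPM in the HFCF libraries (1.41 ± 0.341, SE; edgeR adjusted p = 0.0467). Fgf21, a hormone that the fasted liver secretes and not itself a transcriptional regulator, also rose. It had 16.4, 11.1 and 7.87 CPM in the OP libraries, against 6.41, 3.87 and 4.61 CPM in the HFCF libraries (1.25 ± 0.303, SE; edgeR adjusted p = 0.0472). Among the single omissions the call of Pparg was kept without HFCF replicate 3 alone, and that of Fgf21 without OP replicate 3 alone. Ppara was at -0.34 ± 0.141 (SE), with every OP library below every HFCF library but an edgeR adjusted p of 0.179. The directions of the regulators and of the 37 genes were thus mixed, and no test linked them.

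Of the 12 genes that set malonyl-CoA and the energy sensor AMPK, or encode other forms of CPT1, none passed in edgeR's test and 1 had an unadjusted p under 0.05. That gene was Acacb, the acetyl-CoA carboxylase whose malonyl-CoA bears on CPT1, with 15.8, 27.0 and 15.7 CPM in the OP libraries, against 29.2, 27.1 and 31.1 CPM in the HFCF libraries (-0.58 ± 0.224, SE; edgeR adjusted p = 0.152). It passed without OP replicate 2, at -0.89. Next by p was Prkab1, an AMPK subunit, at -0.30 ± 0.158 (SE). Acaca, the carboxylase of fatty acid synthesis, was at 0.03 ± 0.186 (SE).

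Of 9 tested genes that deliver and activate fatty acids 3 rose and none fell, against 3.26% higher and 3.47% lower over all tested genes. The genes that rose were Fabp1, the fatty acid binding protein of the liver (1.25), and the acyl-CoA synthetases Acsl1 (0.80) and Acsl3. Acsl3, an acyl-CoA synthetase of the endoplasmic reticulum and lipid droplets, had 21.8, 18.3 and 21.3 CPM in the OP libraries, against 8.94, 10.7 and 10.6 CPM in the HFCF libraries (1.02 ± 0.151, SE; edgeR adjusted p = 0.0105). Of 16 tested genes of peroxisomal beta-oxidation, which shortens very long chains, the thiolase gene Acaa1b rose (0.90), Ehhadh fell (-1.34) and 14 did not pass, with a list median of 0.38. The values of Ehhadh, an enzyme with hydratase and dehydrogenase activity, were 359, 413 and 278 CPM in the OP libraries, against 834, 869 and 959 CPM in the HFCF libraries, so Ehhadh fell while Hadh rose. Of 6 genes of ketone body synthesis and export, Bdh1 rose. Bdh1, which interconverts acetoacetate and hydroxybutyrate, had 324, 322 and 223 CPM in the OP libraries, against 142, 148 and 192 CPM in the HFCF libraries (0.85 ± 0.197, SE; edgeR adjusted p = 0.041).

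Of 11 genes of the pyruvate dehydrogenase complex and pyruvate import, Mpc1 and Pdha1 rose and none fell. Over all tested genes 3.26% were called higher and 3.47% lower. Mpc1, a subunit of the mitochondrial pyruvate carrier, had 248, 219 and 213 CPM in the OP libraries, against 126, 128 and 132 CPM in the HFCF libraries (0.81 ± 0.130, SE; edgeR adjusted p = 0.0132). Pdha1, the catalytic subunit that Pdk kinases phosphorylate, was at 0.63 ± 0.145 (SE; edgeR adjusted p = 0.0409). Of 11 genes of propionyl-CoA and branched-chain breakdown, Hibadh, of valine breakdown (0.76), and Mcee, the methylmalonyl-CoA epimerase (0.56), rose, all 11 lay above 0 and the median was 0.34. Of 12 tested other thioesterases and synthetases, the thioesterase Acot7 (0.96) and Acss3 (1.08) rose. Acss3, a mitochondrial synthetase for short chains, had 34.2, 35.9 and 36.8 CPM in the OP libraries, against 16.2, 19.1 and 15.3 CPM in the HFCF libraries and kept its call in 5 of the 6 single omissions, losing it without HFCF replicate 1. All 13 mitochondrially encoded mRNAs lay below 0, with a median of -0.97, and mt-Nd6 alone passed (-1.66 ± 0.396, SE; edgeR adjusted p = 0.0448). So these mRNAs lay on the other side of 0 from 34 of the 37 nuclear genes of fatty acid oxidation. Without OP replicate 1, HFCF replicate 1 or HFCF replicate 2 the calls of Acsl1, Acsl3, Fabp1, Acaa1b, Bdh1, Mpc1, Pdha1, Hibadh, Mcee, Acot7 and mt-Nd6 were lost, as was that of Ehhadh without either of these HFCF libraries. Without OP replicate 2 the calls of Acsl1, Acaa1b, Bdh1, Pdha1, Acot7 and mt-Nd6 were lost too. Mcee lost its call in all 6 single omissions, and Hibadh in all but that of HFCF replicate 3. With both muscle-containing libraries left out, Ppargc1a, Acsl1, Acsl3, Fabp1, Ehhadh, Hibadh and Acss3 passed of the 16 genes called in these lists. That fit called 282 genes higher and 264 lower among all 17397 it tested. With the mitochondrial share as a covariate, Ppargc1a, Ehhadh and Acss3 alone passed of the 16, where 110 of all 17394 tested genes were higher and 97 lower. Under it Bdh1 was at 0.27 and Acot7 at 0.42.

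Promoters of the 37 genes were read from RefSeq sequence of GRCm38.p6, another build than the GRCm39 named for the counts. A window of 250 bases before to 50 bases after the start of the gene was found for 32 genes, 6 of them called, and it was searched on both strands. The GC box GGGCGG, a site known to be bound by Sp1-family factors in promoters without a TATA box, was in the windows of 20 of the 32 genes, or 62.5%, against 35.7% of all 32851 windows. The CCAAT box was in 18, or 56.2%, against 37.4%. The median GC content was 60.3% in the windows of these genes and 52.7% in all windows. The nuclear receptor half-site AGGTCA was in 5 windows, those of Acadm, Acsm1, Echs1, Acadvl and Cpt1a, or 15.6% against 16.3% of all windows. A direct repeat, AGGNCA and AGGNCA again with 1 base of any kind between them, of which PPAR sites are variants, was in none of the 32 windows and in 0.381% of all. TNAAGGTCA, a half-site extended at its 5′ end as for estrogen-related receptors, was in none and in 1.28% of all; its letters contain the half-site. The E-box CACGTG was in 2 windows, or 6.25% against 7.15%. The motif percentages of the 32 genes count genes with a match in any of their 33 windows, while those of all windows count windows. All windows span 27025 genes, whether or not they were tested here.

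The windows of the called Cpt2 (chr4:107923540-107923839, minus strand), Slc25a20 (chr9:108661886-108662185, plus strand) and Hadh (chr3:131272052-131272351, minus strand) are shown with GC boxes in capitals, and those of the called Acsm1 (chr7:119617562-119617861, plus strand) and of Cpt1a (chr19:3323051-3323350, plus strand), which did not pass, with the half-site in capitals. The first 3 show the commonest motif in genes of the shuttle and the cycle, and the others contrast a gene that rose with one that did not, both holding the half-site. Each is written 5′ to 3′ on the strand of the gene; CCGCCC and TGACCT are the same motifs on the other strand.
Cpt2: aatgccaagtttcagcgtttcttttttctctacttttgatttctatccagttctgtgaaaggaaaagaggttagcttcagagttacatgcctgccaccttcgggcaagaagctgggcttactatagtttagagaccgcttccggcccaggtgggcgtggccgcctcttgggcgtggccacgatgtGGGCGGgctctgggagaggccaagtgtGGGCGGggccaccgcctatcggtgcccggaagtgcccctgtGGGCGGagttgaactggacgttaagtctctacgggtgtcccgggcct
Slc25a20: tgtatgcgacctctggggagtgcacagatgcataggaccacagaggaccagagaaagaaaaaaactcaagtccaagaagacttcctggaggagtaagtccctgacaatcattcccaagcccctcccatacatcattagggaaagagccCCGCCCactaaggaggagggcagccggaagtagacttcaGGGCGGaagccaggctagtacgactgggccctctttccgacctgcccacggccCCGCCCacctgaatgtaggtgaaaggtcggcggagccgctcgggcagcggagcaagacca
Hadh: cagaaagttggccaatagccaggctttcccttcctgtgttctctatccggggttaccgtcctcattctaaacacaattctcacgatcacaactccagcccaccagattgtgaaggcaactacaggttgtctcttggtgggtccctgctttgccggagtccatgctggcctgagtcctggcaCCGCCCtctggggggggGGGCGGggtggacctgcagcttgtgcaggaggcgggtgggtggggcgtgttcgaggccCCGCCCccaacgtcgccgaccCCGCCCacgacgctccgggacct
Acsm1: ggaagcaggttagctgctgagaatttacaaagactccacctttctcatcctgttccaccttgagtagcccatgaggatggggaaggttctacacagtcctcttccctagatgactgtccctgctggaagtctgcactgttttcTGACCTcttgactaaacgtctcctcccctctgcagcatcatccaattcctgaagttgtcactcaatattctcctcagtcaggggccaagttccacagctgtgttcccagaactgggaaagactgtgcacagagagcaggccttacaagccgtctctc
Cpt1a: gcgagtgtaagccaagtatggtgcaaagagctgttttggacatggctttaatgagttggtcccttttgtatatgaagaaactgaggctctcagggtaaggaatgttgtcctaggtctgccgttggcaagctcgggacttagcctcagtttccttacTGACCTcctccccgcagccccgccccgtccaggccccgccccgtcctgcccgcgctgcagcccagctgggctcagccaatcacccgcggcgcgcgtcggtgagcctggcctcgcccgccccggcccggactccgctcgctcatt
Cpt2 and Slc25a20 held 3 GC boxes each and Hadh 4, and the half-site in Cpt1a lay 94 bases and that in Acsm1 107 bases before the start. Cpt1a held 3 GC boxes as well, so this motif was not confined to genes that were called. Hadha and Hadhb lie head to head, with starts 273 bases apart, so that their windows share 228 bases. These matches describe letters in the windows and say nothing of binding.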

How the data were processed

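Per the labels' protocols, poly(A) RNA of fresh liver was made into dUTP-marked libraries and sequenced in pairs. Cutadapt 1.9, FastQC and the build GRCm39 are named in the submitters' processing notes; the sources used here name no aligner or counting tool and do not say whether strand was used. The authors deposited whole-number counts per Ensembl gene for 55401 genes in 6 libraries, 3 OP and 3 HFCF.

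Symbols were matched on Ensembl identifiers (55141 matched). Counts were filtered with filterByExpr, scaled by TMM and tested two-sided as OP minus HFCF with edgeR 4.0.16 (glmQLFit, glmQLFTest; R 4.3.3), adjusted by Benjamini-Hochberg over 17394 genes, threshold 0.05. CPM use TMM-scaled library sizes. Standard errors were the log2 fold change over the square root of F. Exon lengths, overlaps and copies (BLAST 2.17.0, at least 95% identity over 200 bases) came from GENCODE M21. As a check for libraries deposited more than once, replicates of a group were compared by chi-square per degree of freedom (46.2 to 349.7), and no pair was counted as 1 library; this check says nothing else about the spread. Alternatives were DESeq2 1.42.0, RLE scaling, other filters, the replicate block, 2 treatments of mitochondrially encoded genes, single omissions and, added after seeing the data, omission of both muscle-containing libraries. Tests were tried on simulated counts. All 37 genes are named; of other lists, those that passed and otherwise the 2 with the smallest p, plus Cpt1b, Ppargc1b, Ppara and Acaca, chosen after their values were seen. Genes and lists were chosen with earlier results of these data known.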

Additional observations from a re-analysis of the deposited data

How the results depend on the processing

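No paired value stands beside the results, since same-numbered libraries did not deviate together (correlations of 0.02, -0.13 and -0.16, and 0 of 6 libraries closest to its own number). With the replicate number as a block, 0 of the 37 genes were called, and over all genes 87 were higher and 93 lower; of the 16 genes called in the other lists, Pparg and Ppargc1a passed. Against 7 genes, 12 were called higher with DESeq2, 3 without a low-count filter, 0 with the mitochondrial share as a covariate, and 1 with both muscle-containing libraries left out, which was added after seeing the data. Without 1 library each, the number ranged from 0 to 10. Over all genes, 567 were higher and 603 lower; the numbers were 1269 and 1265 with DESeq2, 298 and 400 without a filter, 110 and 97 with the covariate, 282 and 264 without both muscle-containing libraries, and between 34 and 655 higher and between 54 and 655 lower without 1 library each. RLE scaling, leaving out mitochondrially encoded genes and a filter of 1 CPM in 3 libraries gave 7, 7 and 8 genes, with all 7 among them. In that order they called 2.92%, 3.18% and 5.37% of all tested genes higher. In none of the fits was any of the 37 genes called lower. Signs turned with the covariate for Acadvl (-0.16), Acadm (-0.0197), Acads (-0.20), Acadsb (-0.0518), Acad11 (-0.35), Hadha (-0.28), Hadhb (-0.19), Echs1 (-0.47), Decr1 (-0.22), Etfa (-0.32), Etfdh (-0.42), Acot1 (-0.53), Acot2 (-0.29), Pdk4 (-1.91) and Cpt1b (-0.15), none of them called. Pdk4 turned without OP replicate 2 (range -0.55 to 2.85 over the single omissions). The cause was not tested. Fits without 1 library have fewer degrees of freedom, and in fits that leave 2 libraries in a group the spread is shared over all libraries. The least abundant of the 37 genes, Acot9, had 95 to 183 counts per library, which is its limit of precision; its reads are fewer if a pair stands for several counts.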
